A study of Mus musculus with 12 samples.

Results

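The 41 interferon-stimulated genes described here were followed in mouse B cells over 0 to at least 8 divisions after lipopolysaccharide (LPS). The genes were taken by symbol from a list of antiviral, nucleic acid sensing and interferon signalling genes, and all 41 were among the 21761 genes of the deposited table. All 41 were also among the 12049 genes kept by the filter on low counts. RNA was counted in 12 libraries, with 2 in each of 6 sorted groups, and each group held 1 library from host mouse 196 and 1 from host mouse 197. Values for a group are given below in that order, host 196 first.

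The cells were splenic B cells (B220+ CD43-). The design text gives their donors as naive C57/BL6J mice, while the sample labels give the strain B6.SJL-Ptprca Pepcb/BoyJ, female, 8 weeks old. The B cells were loaded with a division dye (CFSE or CTV), moved into uMT mice, which lack B cells of their own, left overnight and then challenged with LPS. On day 3 after LPS, transferred cells were sorted from the spleen by dye content into cells with 0 (Div0), 1 (Div1), 3 (Div3) and 5 (Div5) divisions. Cells with at least 8 divisions were sorted into CD138-negative (Div8neg) and CD138-positive (Div8pos) cells. CD138 is a surface protein of plasma cells. All 6 groups, Div0 included, came from mice given LPS, and no group from unchallenged mice was analysed here. Whether the hosts received cells of the same donors is not given in the sources used here.

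Type I interferons bind a receptor made of IFNAR1 and IFNAR2, which activates the kinases JAK1 and TYK2. These phosphorylate transcription factors such as STAT2, which acts with IRF9 at the interferon-stimulated response element (ISRE) in the promoters of target genes. The targets include sensors of viral RNA and DNA, enzymes that degrade or edit RNA, proteins that block viral entry, translation or release, and members of the pathway itself, such as STAT2, IRF7 and IRF9. LPS acts on TLR4, whose adaptor TICAM1 can lead through the kinase TBK1 and the factor IRF3 to interferon beta. In B cells the receptors TLR7 and TLR9 sense nucleic acids in endosomes.

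The ISRE core, GAAANNGAAA, was searched on both strands in the RefSeq promoter windows (build GRCm38.p6, from 250 bases before to 50 after an annotated start). A window was found for 30 of the 41 members. The core was in at least 1 window of 17 of these 30 (56.7%), against 3.99% of 27025 genes. A match describes the letters of the window and is not a measurement of binding. Of the genes whose stretches follow, Gbp2 was higher after few divisions, Oas1a and Ifit3 fell later, and Bst2 and Igtp were higher in CD138-positive cells. They are printed 5′ to 3′ on the gene's own strand, ending before the start site, with every match of the ISRE core in capitals. Where the capitals begin with TTTC, the core lies on the other strand.
Gbp2, chr3:142620579-142620638, + strand: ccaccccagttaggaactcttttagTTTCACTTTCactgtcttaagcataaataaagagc
Oas1a, chr5:120907526-120907570, - strand: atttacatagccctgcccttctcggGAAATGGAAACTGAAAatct
Ifit3, chr19:34583348-34583407, + strand: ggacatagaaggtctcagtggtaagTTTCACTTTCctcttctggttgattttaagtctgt
Bst2, chr8:71537568-71537627, - strand: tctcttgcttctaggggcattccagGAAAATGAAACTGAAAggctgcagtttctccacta
Igtp, chr11:58199497-58199555, + strand: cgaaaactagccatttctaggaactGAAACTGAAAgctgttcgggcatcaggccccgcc

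The single core began 59 bases before the start in Gbp2 and 34 in Igtp. Oas1a and Bst2 held 2 overlapping matches, which began 20 and 14 bases before the start in Oas1a and 130 and 124 in Bst2. Ifit3 held 2 that do not overlap, at 156 and 122 bases before the start, of which the first is printed. The same core letters thus stood before genes that rose and genes that fell. By the course of their calls, the core was in 6 of 7 members that rose at Div1 or Div3, in 7 of 17 that only fell, in 3 of 4 that rose later and in 1 of 2 without a call. The other 11 members enter none of these counts.

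Between 11551585 and 14975133 counts fell on genes in a library, and 113723 to 683173 on spike-ins. The cells carried the B cell markers of the label, with a sum over 8 genes of 8890 to 9980 CPM, the library-scaled count unit of edgeR, from Div0 to Div5. That sum was 6203 to 6396 CPM in Div8neg and 983 to 1024 in Div8pos, while 5 plasma cell genes summed to 288 to 446, then 643 to 769, then 5069 to 5150 CPM. T cell and NK cell markers summed to at most 7.35 and 1.61 CPM. The macrophage list summed to 46.1 to 194 CPM and was highest in Div8neg, led by Itgam. Of 6 dendritic cell markers, the sum was 91.7 to 102 CPM in Div0, 292 to 295 in Div1, 451 to 469 in Div3, 416 to 444 in Div5, 186 to 205 in Div8neg and 20.5 to 24.5 in Div8pos, so it was higher at Div1 and Div3 and lowest in Div8pos, as were several members described below. Most of that sum was Flt3 (84 to 93.1 CPM in Div0, 419 to 436 in Div3), while Clec9a was at most 0.0854, Batf3 0.836 and Xcr1 1.12 CPM in any library. Itgax was at 3.64 to 4.78 CPM in Div0, 47.1 to 64 in Div5 and 1.12 to 1.58 in Div8pos. Zbtb46 was at 3.59 to 3.79 CPM in Div0, 7.15 to 8.98 in Div3 and 0 to 0.264 in Div8pos. The 4 plasmacytoid dendritic cell markers that are no members summed to 215 to 218 CPM in Div0, 372 to 395 in Div8neg and 267 to 288 in Div8pos, nearly all of it Tcf4, with Siglech at 0.427 CPM or less in every library. The part of such cells in the members' courses was not tested. Of the interferon genes looked up, none passed the filter. Ifna1, Ifna4, Ifnb1, Ifne and Ifnl3 had 0 counts in every library, Ifna2 had 2 counts over the 12 libraries, and Ifng and Ifnk had 5 each. Other interferon genes were not looked up.

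The 41 genes held a falling share of the cells' mRNA in the later divisions. By the deposited mRNAs per cell they made up 0.244 and 0.259% of all mRNAs in Div0, 0.255 and 0.278% in Div1 and 0.25 and 0.275% in Div3. It then went down, to 0.222 and 0.237% in Div5, to 0.163 and 0.171% in Div8neg, and to 0.0958 and 0.103% among Div8pos cells. Both Div8neg libraries lay below all 8 libraries of the earlier groups, and both Div8pos libraries lay below both of Div8neg. The summed amount per cell did not follow that order. The total mRNA of a cell was 27410 and 33580 in Div0 and 152000 to 174000 in Div8pos. The genes summed to 66.9 and 86.9 mRNAs per cell in Div0, 109 and 167 in Div1, 158 and 177 in Div8neg, and 167 and 157 in Div8pos. In CPM, 11 of the 41 had their highest group mean in Div0, 16 in Div1, 8 in Div3, 3 in Div5, 1 in Div8neg and 2 in Div8pos, and 36 had their lowest in Div8pos.

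**Figure D1:**
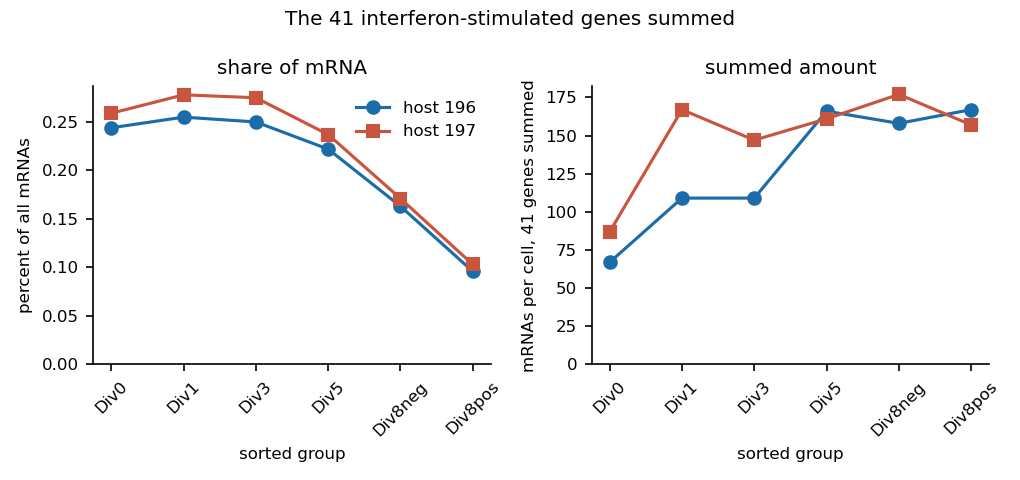
The 41 interferon-stimulated genes summed in each library, as a percentage of all mRNAs (left) and as mRNAs per cell (right), by sorted group, with 1 point per host and lines joining the libraries of a host. The share was 0.244 and 0.259% in Div0 and 0.0958 and 0.103% in Div8pos, while the sum per cell was 66.9 and 86.9 in Div0 and 167 and 157 in Div8pos.

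The levels below are CPM with TMM scaling, and changes are measured against all genes, except where per cell is stated. Calls are those of edgeR's quasi-likelihood test with an adjusted p (Benjamini-Hochberg, over the 12049 genes of each comparison) below 0.05. "Rose" and "fell" are used of called members. With 2 libraries a group the p-values rest on a spread shared over all groups and speak for these 2 hosts. The samples are bulk RNA of sorted cells, so fewer cells that carry an RNA and less of it per cell cannot be told apart. The plot of CPM by library shows all 41 members.

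**Figure D2:**
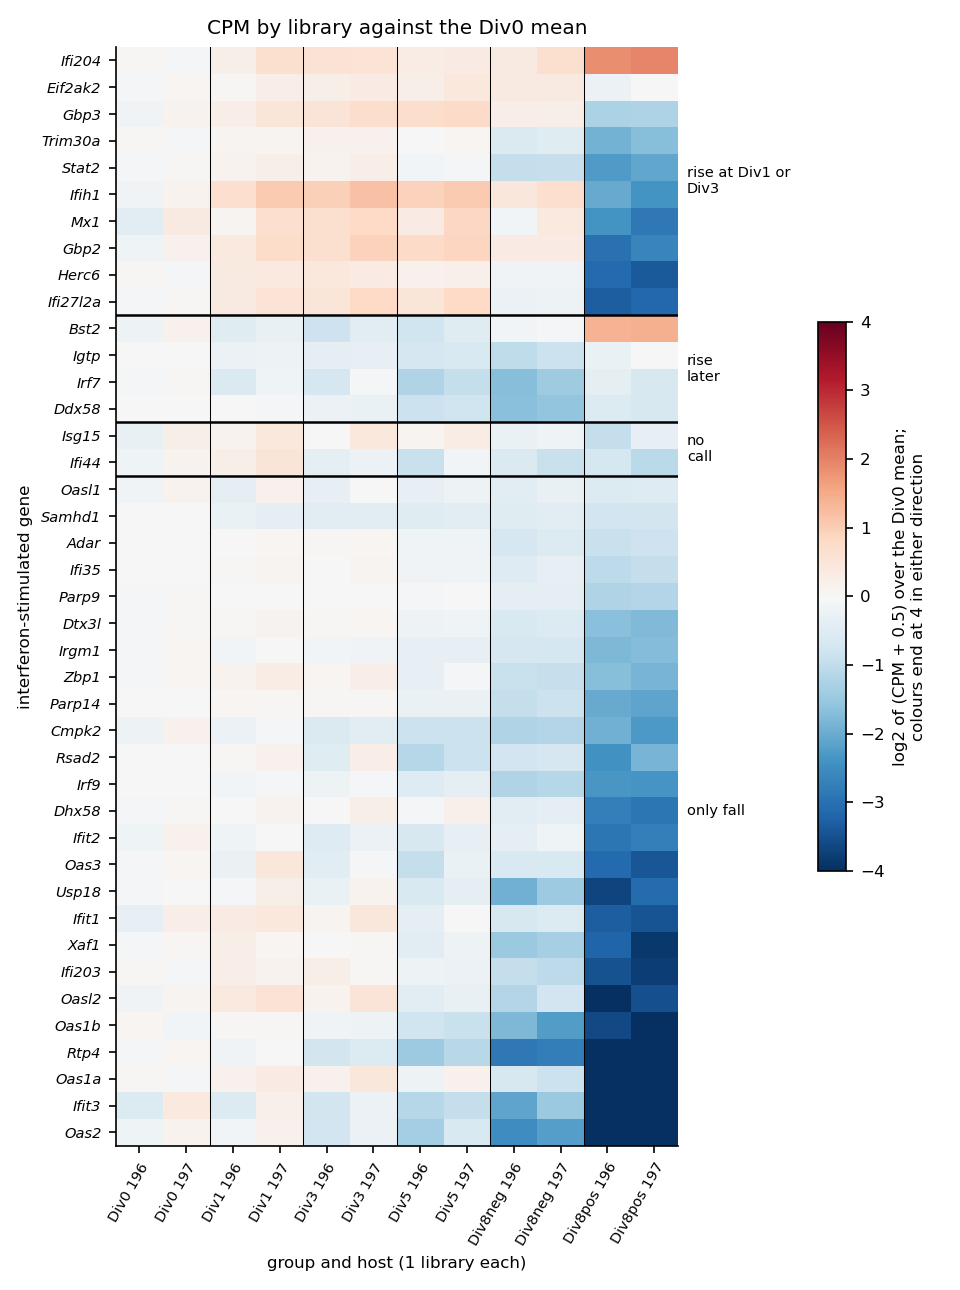
CPM of the 41 members in each of the 12 libraries (columns, group and host), as log2 of CPM plus 0.5 over the mean of the same quantity in Div0. Rows are split by the course of the calls. Div8pos held the lowest group mean of 36 members, and Bst2 and Ifi204 are red there.

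The first question is what changed by the first division and by the third. In Div1 against Div0, 5 of the 41 members rose (5.47% of all genes did) and 1 fell (3.9% of all genes). The 5 were Ifih1, Gbp2, Ifi27l2a, Gbp3 and Herc6, and the 1 that fell was Samhd1. The members' median log2 change was 0.11, against -0.01 for all genes. With host as a block, 10 rose and 3 fell. Oasl2 had an adjusted p of 0.0538 in edgeR's test, just outside the threshold, and 0.0013 with the host block. With the block Mx1 (0.0383), Stat2 (0.0118), Zbp1 (0.0467) and Ifi203 (0.0085) were also called higher by edgeR's adjusted p, and Bst2 (0.0149) and Igtp (0.0247) lower. The number higher was 2 without either Div0 host 196 or Div1 host 197: then Gbp2, Gbp3 and Ifi27l2a lost their calls (edgeR adjusted p of 0.0921 to 0.177), and Ifi27l2a also did without Div0 host 197 (0.052).

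Ifih1 encodes MDA5, a sensor of long double-stranded RNA. It was at 19.7 and 23.8 CPM in Div0, 35.1 and 45.6 in Div1, and 42.4 and 49.2 in Div3. Both Div1 libraries and both Div3 libraries lay above both Div0 libraries. The log2 change was 0.91 ± 0.14 (SE) in Div1 against Div0 (1.87-fold, edgeR adjusted p = 0.000427) and 1.08 ± 0.13 in Div3 against Div0 (2.12-fold, 2.09e-05). Per cell, Ifih1 was at 0.184 and 0.265 mRNAs in Div0 and 0.61 and 0.874 in Div3, under 1 copy in all of these libraries.

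Gbp2 and Gbp3 encode guanylate-binding proteins, large GTPases that act on membranes of intracellular microbes. Gbp2 was at 89.6 and 113 CPM in Div0, 133 and 170 in Div1, and 159 and 193 in Div3, with no overlap between Div0 and either later group. Its log2 change was 0.59 ± 0.12 in Div1 (edgeR adjusted p = 0.00603) and 0.80 ± 0.12 in Div3 (0.000168), both against Div0. Gbp3 was at 115 and 139 CPM in Div0, 154 and 176 in Div1 and 182 and 208 in Div3, rising by 0.38 ± 0.09 (0.0105) and 0.62 ± 0.09 (7.08e-05) in the same edgeR comparisons. Reads of these related genes may be split between paralogs. Mx1, of a further family of large GTPases, was at 9.96 and 17.9 CPM in Div0 and 22.1 and 24.8 in Div3. It rose in Div3 against Div0 (0.77 ± 0.24, edgeR adjusted p = 0.0273), and its hosts lay further apart in Div0 than those of Gbp2.

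Herc6 is the mouse ligase that attaches ISG15 to proteins. It was at 41.4 and 39.5 CPM in Div0, 52 and 53.1 in Div1 and 53.8 and 50.8 in Div3, so that the hosts nearly coincided. It rose by 0.38 ± 0.07 in Div1 (edgeR adjusted p = 0.00239) and by 0.37 ± 0.07 in Div3 (0.00105). Isg15 itself was at 23.3 and 34.4 CPM in Div0 and 31.7 and 38.6 in Div1, with overlapping groups and an edgeR adjusted p of 0.357. Ifi27l2a, which encodes a small hydrophobic protein of the Ifi27 family, rose from 30.1 and 32.6 CPM in Div0 to 40.4 and 46.1 in Div1 (0.47 ± 0.12, edgeR adjusted p = 0.0197) and was at 43.9 and 54.7 in Div3.

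Samhd1, an enzyme that breaks down the nucleotides needed for DNA synthesis, went the other way. It was at 622 and 633 CPM in Div0, 518 and 494 in Div1 and 466 and 471 in Div3. The 3 groups did not overlap. Its log2 change was -0.31 ± 0.05 in Div1 against Div0 (edgeR adjusted p = 0.000453) and -0.42 ± 0.05 in Div3 against Div0 (8e-06). With library sizes scaled to the spike-ins, which sets values per cell, the sign turned, to 0.43 in Div1 and 0.23 in Div3. Neither value was called (edgeR adjusted p = 0.0691 and 0.332).

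Between Div1 and Div3 no member was called by edgeR (0 higher, with 1.91% of all genes higher, and 0 lower, with 1.51% lower). At an unadjusted p under 0.05 there were 7 (1 higher and 6 lower), and DESeq2 called 0 in either direction. With the host block 1 rose and 3 fell: Gbp3 (edgeR adjusted p = 0.0167) higher, and Oas2 (0.0143), Rtp4 (0.0214) and Ddx58 (0.0322) lower.

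In Div3 against Div0, 10 members rose (14.3% of all genes did) and 6 fell (12.5% of all genes), with a median log2 change of 0.05. The 5 that had risen in Div1 were all among the 10, and the other 5 were Mx1, Ifi204, Eif2ak2, Stat2 and Trim30a. Ifi204, a DNA-binding sensor of the AIM2-like family, was at 6.84 and 6.24 CPM in Div0 and 9.91 and 9.86 in Div3 (0.59 ± 0.17, edgeR adjusted p = 0.015). Eif2ak2 encodes PKR, the RNA-activated kinase that stops translation, and rose by 0.28 ± 0.09 (0.036 by edgeR). Stat2 rose by 0.21 ± 0.07 (edgeR adjusted p = 0.0313). Trim30a, a regulator of Toll-like receptor signalling, was just inside the threshold at 0.17 ± 0.06 (0.0479), and the next member outside it in that direction was Oas1a (0.34 ± 0.13, 0.0678).

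The 6 that fell by Div3 were Rtp4 (-0.67 ± 0.17, edgeR adjusted p = 0.0104), Bst2 (-0.61 ± 0.15, 0.00546), Cmpk2 (-0.52 ± 0.15, 0.0165), Samhd1, Igtp (-0.35 ± 0.08, 0.00343) and Ddx58 (-0.25 ± 0.06, 0.00501). Rtp4 encodes a receptor transporter protein, and Cmpk2 a mitochondrial nucleotide kinase. With the host block 10 fell, among them also Ifit2, Ifit3, Oas2 and Irf9 (edgeR adjusted p of 0.00464, 0.0321, 0.00737 and 0.0455). Without Div3 host 197 the number that rose was 5, and without Div0 host 196 it was 6. The number that fell was 3 without Div0 host 197 and 3 without Div3 host 196. Calls of Mx1, Stat2, Trim30a, Eif2ak2, Ifi204, Rtp4, Bst2 and Cmpk2 were lost when 1 library was left out (adjusted p of up to 0.302 for Mx1), while those of Ifih1, Gbp2, Gbp3, Ifi27l2a, Herc6, Samhd1, Igtp and Ddx58 were kept in all 12 such fits. Trim30a also lost its call without any 1 library of Div1, Div5 or Div8neg, groups outside this comparison. In the fit of the 2 groups alone, Trim30a and Stat2 were not called (edgeR adjusted p = 0.0718 and 0.0506). DESeq2 called 7 higher and 4 lower, and Trim30a was not among them (DESeq2 adjusted p = 0.079). With spike-in scaling 5 of the 6 that fell changed sign, Rtp4 being the other one. None of the 5 was then called (edgeR adjusted p of 0.0966 to 0.899).

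**Figure D3:**
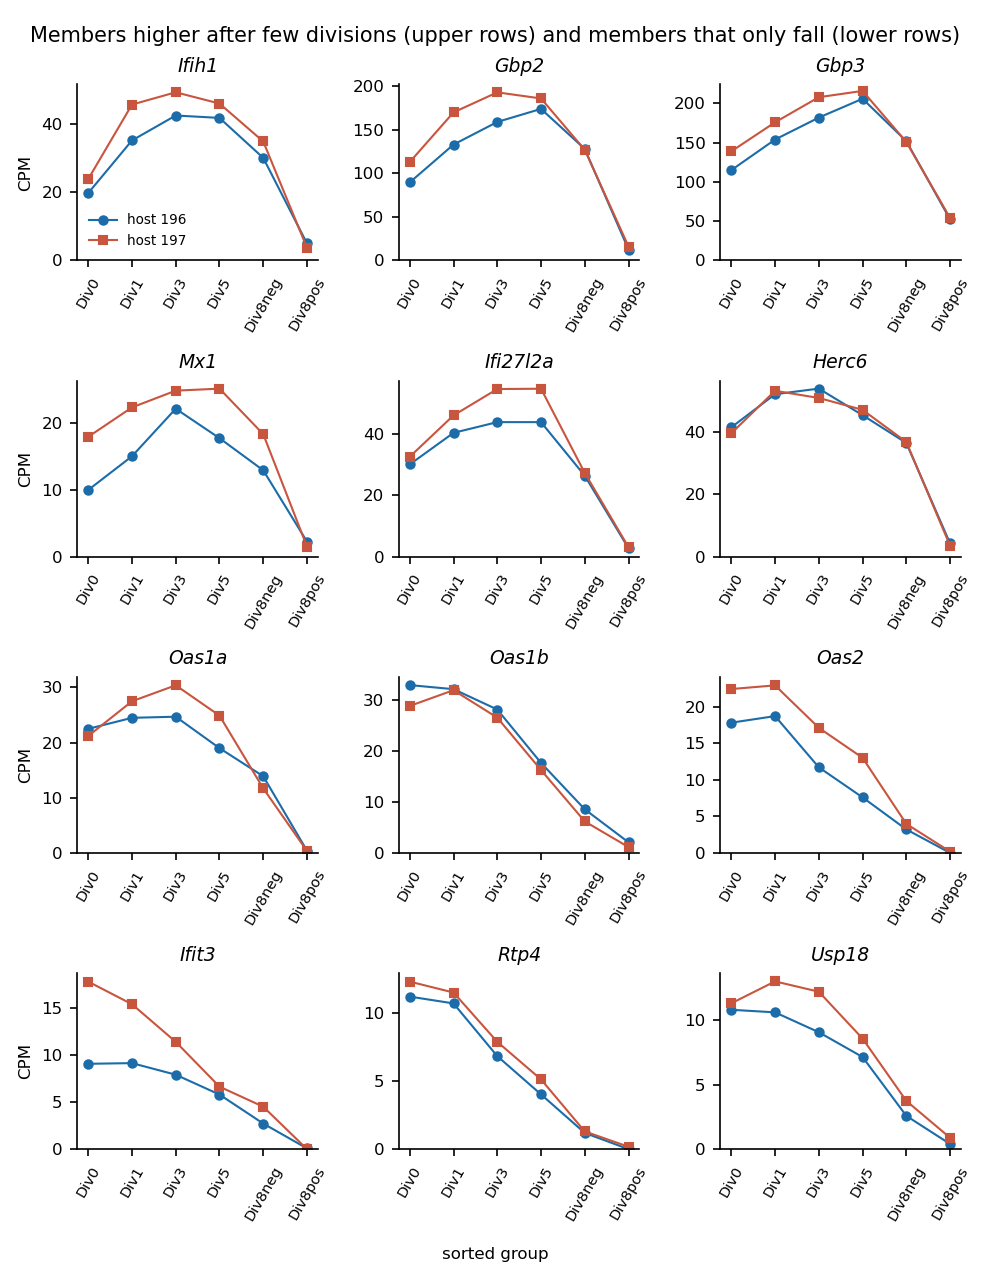
CPM by sorted group for 6 members higher at Div1 or Div3 (upper rows) and 6 with only falls called (lower rows). There is 1 point per library, and lines join the libraries of a host. Ifih1 reached 42.4 and 49.2 CPM in Div3 and was at 4.95 and 3.7 in Div8pos, and Oas1b went from 33 and 28.9 in Div0 to 2.08 and 1.14.

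From Div3 to Div5 the calls went one way. Of the 41 members 16 fell (12.4% of all genes did) and 0 rose (14.2% of all genes). For the direction with no call, 0 members were higher at an unadjusted p under 0.05 in edgeR and 0 in DESeq2. The median log2 change was -0.28, against 0 for all genes to 2 decimals. All 3 transcription factors fell relative to all genes, while their values per cell were -0.19 for Irf7, 0.25 for Irf9 and 0.26 for Stat2, none of them called. Of the sensors 3 of 6 fell, of the oligoadenylate synthetases 2 of 6, and of Parp9, Parp14 and Dtx3l 2 of 3, the last 2 with positive values per cell. No IFIT gene was called. With library sizes scaled to the spike-ins, edgeR called 5 members higher (45.2% of all genes) and 0 lower (0.398%).

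Irf7, the factor that drives interferon alpha genes, was at 12 and 18.3 CPM in Div3 and 8.04 and 9.69 in Div5 (-0.78 ± 0.20, edgeR adjusted p = 0.0094). The groups did not overlap, and the Div3 hosts lay far apart. Oas1b was at 28.2 and 26.6 CPM in Div3 and 17.7 and 16.3 in Div5 (-0.69 ± 0.13, edgeR adjusted p = 0.00115). It belongs to the oligoadenylate synthetase family, whose active members make 2-5A, the activator of RNase L. Oasl2, a related protein, went from 18.1 and 23.6 CPM to 11.8 and 13.4 (-0.74 ± 0.16, edgeR adjusted p = 0.00396). Ddx58 encodes RIG-I, a sensor of RNA with a triphosphate end, and went from 139 and 137 CPM to 90.9 and 94.2 (-0.57 ± 0.06, edgeR adjusted p = 2.02e-05). Ifi203 (-0.37 ± 0.07, edgeR adjusted p = 0.00247) and Xaf1, a pro-apoptotic protein (-0.36 ± 0.12, 0.0346), fell relative to all genes. With spike-in scaling their values were 0.18 and 0.17, neither called (edgeR adjusted p = 0.491 and 0.503). The number that fell was 6 without Div5 host 196 and 9 without Div3 host 197. Irf7 lost its call in both of these fits (adjusted p of 0.0807 and 0.14), and Xaf1 in those and without Div3 host 196 (0.0802 to 0.267), while Oasl2, Oas1b, Ddx58 and Ifi203 were called in all 12. The host block added calls for Ifit1, Ifit3, Usp18, Oas1a, Oas2 and Herc6 (edgeR adjusted p of 0.0109 to 0.0431).

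From Div5 to Div8neg, 26 members fell (26.6% of all genes did) and 1 rose (26.8% of all genes), with a median log2 change of -0.47. Oas2 went from 7.59 and 13 CPM to 3.21 and 3.97 (-1.51 ± 0.29, edgeR adjusted p = 0.000462). Oas1b went from 17.7 and 16.3 CPM to 8.57 and 6.19 (-1.19 ± 0.15, 1.08e-05 by edgeR). Stat2 went from 234 and 248 CPM to 131 and 135 (-0.86 ± 0.07, edgeR adjusted p = 1.43e-07), and Irf9 from 104 and 117 to 64.8 and 68 (-0.74 ± 0.07, 4.31e-07). Both of these factors thus fell relative to all genes, and their groups did not overlap; per cell their values were -0.37 and -0.24, neither of them called (limma adjusted p = 0.17 and 0.373). Xaf1 (-1.11 ± 0.13, edgeR adjusted p = 6.87e-06), Ifi27l2a (-0.87 ± 0.12, 1.89e-05) and Ddx58 (-0.81 ± 0.07, 1.43e-07) fell as well. Below 10 CPM in both groups, Rtp4 (-1.87 ± 0.27, edgeR adjusted p = 3.66e-05) and Usp18 (-1.32 ± 0.24, 0.000246) fell by more than these 3 did. Bst2 encodes tetherin, which holds budding virus at the cell surface. It rose from 15.6 and 19.2 CPM to 25.4 and 26.6 (0.58 ± 0.15, edgeR adjusted p = 0.00362), and without Div5 host 196 that p was 0.0626. With the host block Ifit1, Ifit3, Isg15, Mx1 and Irf7 were also lower (edgeR adjusted p of 0.00174 to 0.0449). Per cell, 5 members were lower (3.56% of all genes were) and 3 higher (42.2% of all genes), with a median of 0.02. The 5 were Rtp4, Oas2, Usp18, Oas1b and Xaf1, and the 3 were Bst2, Ifit2 and Ifi204. With spike-in scaling edgeR called 5 higher (42.3% of all genes) and 5 lower (3.06%).

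Across all divisions of CD138-negative cells, Div8neg against Div0, 29 members fell (35.7% of all genes did) and 5 rose (35.3% of all genes). The members' median log2 change was -0.64, against -0.01 for all genes. Rtp4 was at 11.2 and 12.3 CPM in Div0 and 1.19 and 1.3 in Div8neg, 9.38-fold lower (log2 -3.23 ± 0.24, edgeR adjusted p = 7.11e-09). Its level was lower in each sorted group than in the one before, in both hosts. Usp18, which removes ISG15 and dampens the interferon receptor, was at 10.8 and 11.3 CPM and then 2.58 and 3.74 (-1.81 ± 0.23, edgeR adjusted p = 3.02e-06). Ifit3, one of the IFIT proteins that bind foreign RNA ends, was at 9.07 and 17.8 CPM and then 2.72 and 4.51 (-1.89 ± 0.34, edgeR adjusted p = 0.000135). Its Div0 libraries lay far apart but did not overlap those of Div8neg.

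All 6 oligoadenylate synthetase genes fell in this comparison relative to all genes, from -0.37 ± 0.15 for Oasl1 (edgeR adjusted p = 0.0339) to -2.48 ± 0.27 for Oas2 (5.86e-07), with Oas1b at -2.06 ± 0.14 (3.27e-09); per cell, only Oas2 of the 6 was called lower, Oas1b was not called and the other 4 were higher. The 3 transcription factors fell too, Irf7 by 1.64 ± 0.21 (edgeR adjusted p = 3.3e-06), Irf9 by 1.17 ± 0.07 (4.34e-10) and Stat2 by 0.94 ± 0.07 (8.88e-09), while per cell their values were 0.04, 0.50 and 0.73. Ddx58 also fell by 1.64 ± 0.06 (edgeR adjusted p = 9.48e-12) relative to all genes, while its value per cell was 0.04 ± 0.22 (limma adjusted p = 0.87), with no call. Per cell, Usp18 (-0.12) and Ifit3 (-0.16) were not called either. The 5 that rose were Ifih1 (0.58 ± 0.14, edgeR adjusted p = 0.00156), Ifi204 (0.54 ± 0.17, 0.00887), Eif2ak2 (0.37 ± 0.09, 0.00235), Gbp2 (0.33 ± 0.12, 0.0244) and Gbp3 (0.26 ± 0.09, 0.016). Without Div8neg host 197 the number that rose was 2, and without Div8neg host 196 or Div0 host 196 it was 3. The calls of Gbp2, Gbp3, Ifi204, Ifit1, Oas3, Oasl1 and Rsad2 were each lost when 1 library was left out (adjusted p of up to 0.288 for Gbp2).

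The largest changes were between the CD138-positive and the CD138-negative cells. In Div8pos against Div8neg, 33 members fell (35.3% of all genes did) and 5 rose (36.7% of all genes), and only Isg15, Oasl1 and Ifi44 had no call. The median log2 change was -1.27 for the members and 0.01 for all genes. In the same libraries the B cell markers fell and the plasma cell markers rose, as given above. Every fit that left out 1 library called 5 members higher and 33 or 34 lower.

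Oas1a went from 13.9 and 11.7 CPM in Div8neg to 0.4 and 0.352 in Div8pos, 33.3-fold lower (log2 -5.06 ± 0.33, edgeR adjusted p = 9.42e-10). Of the other oligoadenylate synthetases, Oas1b was at 2.08 and 1.14 CPM in Div8pos, Oas3 at 0.879 and 0.616 and Oasl2 at 0.479 and 0.968. These 3 fell by 2.18 to 3.50 on the log2 scale, whereas Oasl1 held 38.8 and 42.4 CPM in Div8neg and 35.7 and 36.3 in Div8pos (-0.17 ± 0.15, edgeR adjusted p = 0.323). The remaining gene, Oas2, had 98 counts in the 2 Div8neg libraries and 2 in the 2 Div8pos libraries, a ratio of 42.6 (95% interval of counting error 11.5 to 357). Of the 6 genes 5 thus fell, and Oasl1 was not called.

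All 3 IFIT genes fell. Ifit1 went from 6.13 and 6.65 CPM to 0.559 and 0.44 (-3.64 ± 0.38, edgeR adjusted p = 3.31e-07), and Ifit2 from 16.5 and 18.9 to 2.48 and 2.82 (-2.74 ± 0.21, 6.89e-09). Ifit3 had 98 counts against 1, a ratio of 85.3 with an interval of 15 to 3402, so its size is poorly fixed. Rtp4 had 34 counts against 2, a ratio of 14.8 (3.79 to 127).

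Of the 10 genes that had risen at Div1 or Div3, 9 fell and Ifi204 rose. Their median log2 change was -2.20, and that of the 25 members that only fell was -2.30. The latter class was set in part by the calls of this same comparison, so the medians are a description. Herc6 went from 36.4 and 36.7 CPM to 4.24 and 3.52 (-3.23 ± 0.11, edgeR adjusted p = 3.45e-13). Ifi27l2a went from 26.4 and 27.3 to 2.72 and 3.08 (-3.21 ± 0.20, edgeR adjusted p = 4.43e-10). Gbp2 was at 128 and 127 CPM and then 12.5 and 15.9 (-3.17 ± 0.16, edgeR adjusted p = 4.05e-11). In these 3 genes the groups did not overlap. Mx1 (-3.04 ± 0.38, edgeR adjusted p = 2.46e-06) and Ifih1 (-2.89 ± 0.19, 9.79e-10) moved likewise, and Gbp3, by 1.51 ± 0.09, fell less than Gbp2 did. Another RNA sensor gene, Dhx58, which encodes LGP2, went from 31.7 and 32.3 CPM to 5.99 and 5.28 (-2.50 ± 0.14, edgeR adjusted p = 2.13e-10).

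A middle band of members fell by less. Parp9, Parp14 and Dtx3l, which act together in ADP-ribosylation and ubiquitin marking, fell by 0.84 to 1.17 on the log2 scale, and the exons of Parp9 and Dtx3l overlap on opposite strands. Stat2 fell by 1.24 ± 0.08 and Irf9 by 1.19 ± 0.08 (edgeR adjusted p = 5.64e-10 and 1.04e-09). The RNA-editing enzyme Adar (-0.25 ± 0.06, edgeR adjusted p = 0.000723) and Samhd1 (-0.30 ± 0.05, 3.68e-05) had the smallest called falls.

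The 5 members that rose in Div8pos were Bst2, Ifi204, Irf7, Ddx58 and Igtp. Bst2 went from 25.4 and 26.6 CPM in Div8neg to 73 and 73.8 in Div8pos, 2.82-fold (log2 1.50 ± 0.13, edgeR adjusted p = 2.36e-08). Both Div8pos libraries lay above all 10 others, the highest of which was 31.1 in Div0. Ifi204 went from 8.57 and 10.5 CPM to 25 and 26.8, 2.71-fold (1.44 ± 0.14, edgeR adjusted p = 1.37e-07), and was likewise higher than in all 10 other libraries. Its relative Ifi203, which is annotated as overlapping Mndal on the same strand, fell by 2.63 ± 0.09 (edgeR adjusted p = 6.2e-13), from 179 and 167 CPM to 30.4 and 25.2.

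The other 3 returned toward their Div0 levels. Irf7 was at 18.6 and 19.8 CPM in Div0, 5.58 and 6.8 in Div8neg and 15 and 12.1 in Div8pos (1.14 ± 0.22 against Div8neg, edgeR adjusted p = 0.000213). Ddx58 was at 167 and 161, 50.8 and 54.6, and 113 and 104 CPM in the same groups (1.04 ± 0.07, edgeR adjusted p = 7.07e-10). Igtp, an immunity-related GTPase, was at 90.5 and 93.4, 44.9 and 50, and 77.2 and 93.3 CPM (0.85 ± 0.08, edgeR adjusted p = 1.47e-07). For Irf7 and Ddx58 both Div8pos libraries lay below both Div0 libraries, and for Igtp 1 of them lay within the Div0 range. The immunity-related GTPase Irgm1 fell, by 1.08 ± 0.06 (edgeR adjusted p = 1.8e-10), from 148 and 145 CPM to 68.1 and 70.9.

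Some of these genes share exonic bases with a neighbour in the GENCODE M21 annotation, and the strand setting of the counting is not given in the sources used here. Igtp overlaps Irgm2 on the same strand, and Irgm2 was at 28 and then 22.4 CPM (mean of 2 libraries; log2 -0.32 ± 0.09, edgeR adjusted p = 0.00366). Irf7 overlaps Phrf1 on the opposite strand, and Phrf1 was at 186 and then 228 CPM (0.29 ± 0.06, edgeR adjusted p = 0.00035). Bst2, Ifi204 and Ddx58 overlap no gene of the table. Bst2 and Irf7 are also abundant in plasmacytoid dendritic cells. Of the markers of those cells, Tcf4 was lower in Div8pos (259 to 278 CPM) than in Div8neg (371 to 394), Clec4g was at 0 in Div8pos and Siglech was at 0.0799 and 0 CPM in Div8pos, while the chemokine receptor gene Ccr9 was at 10.3 and 8.36 CPM there and 1.39 and 1.07 in Div8neg. The part of such cells in the result was not tested.

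**Figure D4:**
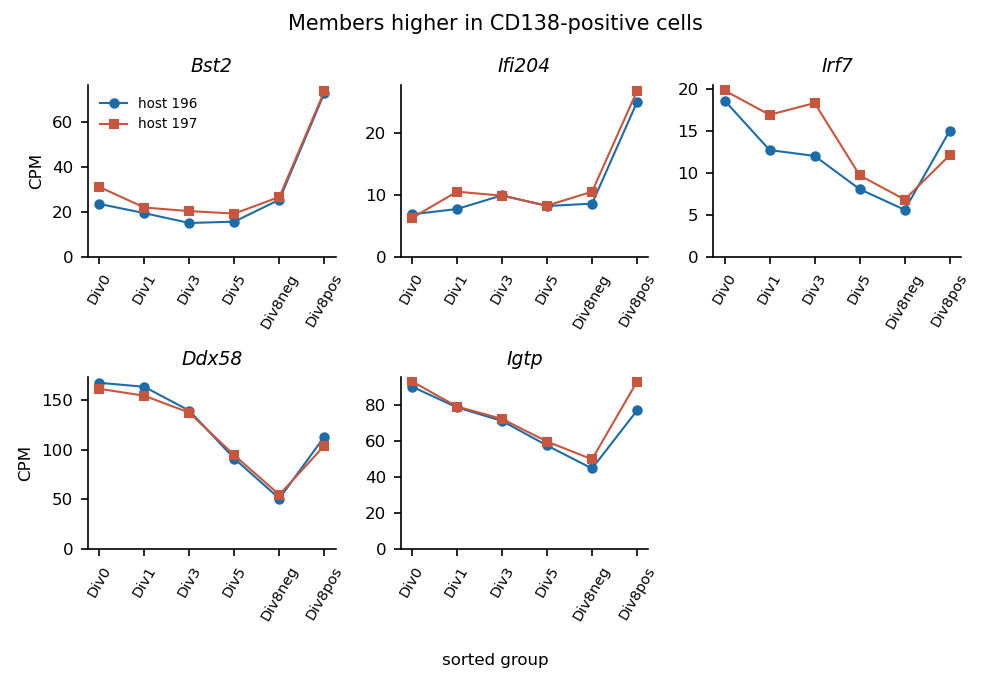
CPM in each library by sorted group for the 5 members that rose in Div8pos against Div8neg, with 1 point per library and lines joining the libraries of a host. Bst2 (73 and 73.8 CPM) and Ifi204 (25 and 26.8) were highest in Div8pos, while Irf7, Ddx58 and Igtp dipped in Div8neg.

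Sorted by their calls over the 7 comparisons, 10 of the 41 members rose at Div1 or Div3 against Div0, 25 only fell, 4 rose only later and 2 had no call. The 10 were Mx1, Ifih1, Stat2, Herc6, Trim30a, Eif2ak2, Ifi27l2a, Gbp2, Gbp3 and Ifi204. They made up 3 of 5 large and immunity-related GTPases and 2 of 6 sensors, and none of the oligoadenylate synthetases, IFIT genes or PARP and DTX3L genes. With the host block they were 14 with Oas1a, Oasl2, Zbp1 and Ifi203 added, and so held 2 of 6 oligoadenylate synthetases and 4 of 6 sensors, while the class that only fell held 23. All 6 oligoadenylate synthetase genes, all 3 IFIT genes and Parp9, Parp14 and Dtx3l were among the 25. That class means that no rise was called, not that no level went up. Ifit2, Ifit3, Oasl1, Rtp4, Irf9, Samhd1, Irgm1 and Cmpk2 had their highest group mean in Div0, and the rest of the 25 in Div1 or Div3. Among the latter, Oasl2 was at 15 and 17.9 CPM in Div0 and 21.5 and 25 in Div1. The 4 that rose only later were Ddx58, Irf7, Bst2 and Igtp. Isg15 and Ifi44 had no call, and with the host block Isg15 was lower in Div8pos than in Div8neg (edgeR adjusted p = 0.00312) and Ifi44 lower in Div8neg than in Div0 (0.0433). Without Div0 host 196 or Div3 host 197 the first class held 6. These classes come from the calls themselves and are a description. They were not counted over all genes, so their sizes have no background share beside them. In single comparisons, 14.3% of all genes rose in Div3 against Div0 and 35.3% fell in Div8pos against Div8neg.

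Per cell, most members gained mRNA with division, as most genes did. Spike-in RNA had been added to a fixed number of cells, and the deposited mRNAs per cell were tested with limma on log2 of the value plus 0.1, a scale that understates the changes of low genes. On this scale the median gene moved by 0.63 from Div0 to Div1, by 0.54 from Div0 to Div3, by 1.41 from Div0 to Div8neg and by 0.49 from Div8neg to Div8pos. Members are read against these shifts.

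In Div1 against Div0, 37 of 41 members were higher per cell (76.9% of all genes were) and 0 lower (0.133% of all genes), with a median of 0.76. In Div3 against Div0, 25 were higher (60.5% of all genes) and 0 lower (0.747%), with a median of 0.64. At an unadjusted p under 0.05 limma had 0 members lower in either comparison, and edgeR with spike-in scaling called 0 lower. These counts depended on single libraries: 8 members were higher in Div1 without Div0 host 196 and 7 without Div1 host 197, and in Div3 there were 7 without Div0 host 196 and 7 without Div3 host 197.

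In Div8neg against Div0, 30 members were higher per cell (88.3% of all genes were) and 2 lower (1.67% of all genes), and the members' median of 0.87 lay below that of all genes. The 2 that were lower were Rtp4 and Oas2. Rtp4 was at 0.524 and 0.688 mRNAs per cell in Div0 and 0.187 and 0.222 in Div8neg (-1.20 ± 0.21, limma adjusted p = 1e-07), and Oas2 at 0.295 and 0.443 and then 0.179 and 0.241 (-0.59 ± 0.21, 0.00592). Both groups stood apart for both genes. The lower count was 1 without Div0 host 197 or without Div8neg host 196.

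In Div8pos against Div8neg, 26 members were lower per cell (16.3% of all genes were) and 5 higher (52% of all genes), with a median of -0.69. The 5 were again Bst2, Ifi204, Irf7, Ddx58 and Igtp. Bst2 went from 8.24 and 9.35 to 38.2 and 34.3 mRNAs per cell, 4.09-fold on this scale (log2 2.03 ± 0.23, limma adjusted p = 5.78e-13), and was then the most abundant of the 41 per cell in both libraries. Igtp went from 5.51 and 6.66 to 15.3 and 16.4 (1.37 ± 0.22, limma adjusted p = 8.97e-08). Ddx58 went from 1.97 and 2.3 to 7.04 and 5.76 (1.54 ± 0.22, limma adjusted p = 3.19e-09). Ifi204 went from 0.693 and 0.925 to 3.26 and 3.1 (1.86 ± 0.22, 9.86e-13 by limma), and Irf7 from 0.729 and 0.965 to 3.17 and 2.26 (1.56 ± 0.24, 1.16e-08). All 5 were more abundant per cell in both Div8pos libraries than in any other library.

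Of those lower per cell, Oas1a went from 1.83 and 1.67 to 0.0848 and 0.0664 mRNAs (-3.40 ± 0.23, limma adjusted p = 4.56e-26). Gbp2 went from 12.9 and 14 to 2.03 and 2.31 (-2.58 ± 0.23, limma adjusted p = 6.7e-18), and Ifi27l2a from 7.43 and 8.36 to 1.23 and 1.24 (-2.58 ± 0.23, 2.47e-18). Isg15 was at similar values, with 7.87 and 9.15 in Div8neg and 7.79 and 10.8 in Div8pos (0.11 ± 0.24, 0.683 by limma). Besides Isg15, the members with no call per cell were Adar, Samhd1, Eif2ak2, Cmpk2, Oasl1, Parp9, Zbp1, Ifi35 and Ifi44. Adar and Samhd1, which fell relative to all genes, had positive values per cell (0.29 ± 0.22 and 0.25 ± 0.22, limma adjusted p = 0.246 and 0.325).

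**Figure D5:**
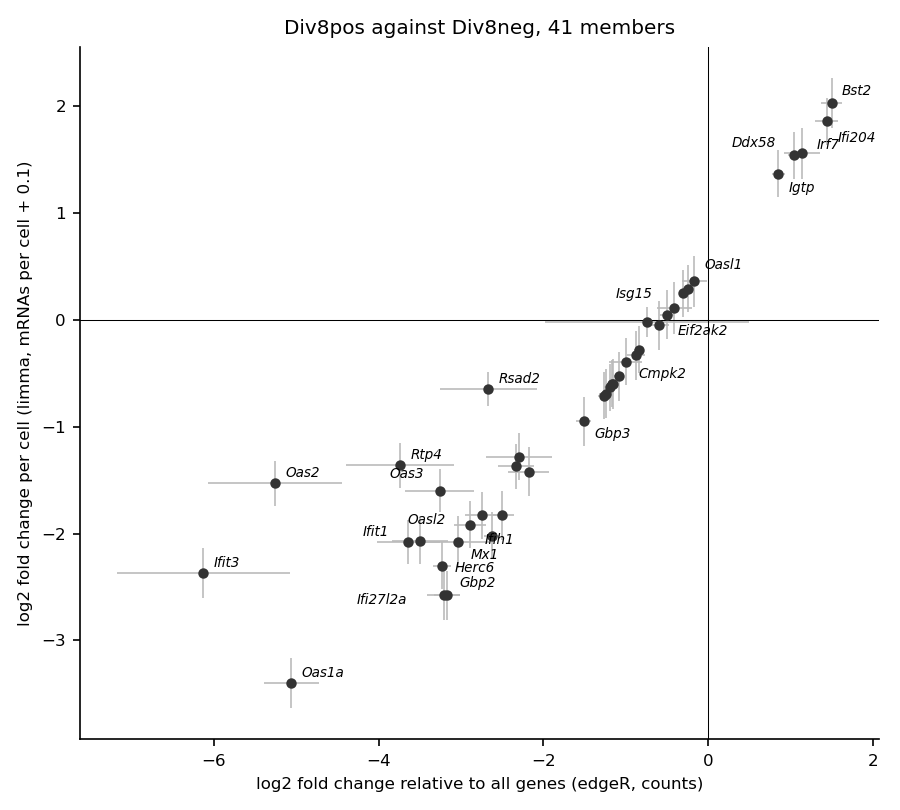
Log2 fold change of the 41 members in Div8pos against Div8neg, relative to all genes (horizontal) and per cell (vertical), with bars of 1 standard error on either side. Both axes come from the same libraries. Bst2, Ifi204, Irf7, Ddx58 and Igtp lie above 0 on both axes, and Oas1a (-5.06 and -3.40) lies lowest per cell.

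The hosts differed. In host 197 the members were higher than in host 196 for 31 of 41 in Div0, 33 in Div1, 33 in Div3, 36 in Div5, 30 in Div8neg and, of Div8pos, 22. The median log2 difference, host 197 over host 196, was 0.11, 0.15, 0.16, 0.18, 0.09 and 0.02 in the same order, and that of all genes was between -0.02 and 0.01. This was not tested, as there is 1 mouse on either side. Ifit2, Isg15, Usp18, Oas2, Oasl1, Oasl2, Rsad2, Rtp4, Stat2, Bst2, Ifi27l2a and Igtp were higher in host 197 in all 6 groups, and Oas1b and Ifi203 were lower in all 6. A list of 6 neutrophil markers was also higher in host 197 in each group, at 4.22 to 58.7 CPM against 2 to 6.54 in host 196, with Elane at 0 in 4 of the groups. The part of these cells in the host difference was not tested.

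The genes upstream of the members were taken from a separate list of ligands, receptors and signalling genes, of which 46 of 58 were tested. In Div1 against Div0, 4 rose (8.7% of the list, against 5.47% of all genes) and 2 fell (4.35%, against 3.9%), or 5 with the host block. In Div3 against Div1, 3 rose (6.52%, against 1.91%) and 2 fell (4.35%, against 1.51%), or 4 and 3 with the block. From Div0 to Div3, 9 rose (19.6%, against 14.3%) and 10 fell (21.7%, against 12.5%). From Div3 to Div5, 5 rose (10.9%, against 14.2%) and 11 fell (23.9%, against 12.4%). From Div5 to Div8neg, 3 rose (6.52%, against 26.8%) and 27 fell (58.7%, against 26.6%). Over all divisions, from Div0 to Div8neg, 8 rose (17.4% of the list, against 35.3% of all genes) and 30 fell (65.2%, against 35.7%). From Div8neg to Div8pos 5 rose (10.9%, against 36.7%) and 27 fell (58.7%, against 35.3%). Relative to all genes falls thus outnumbered rises in the comparisons from Div3 to Div5 on. Per cell, by limma, falls did not outnumber rises up to Div8neg. In Div5 against Div3, 13 were higher and 0 lower (42.6 and 0.415% of all genes). The counts were 8 and 0 in Div8neg against Div5 (42.2 and 3.56%), and 41 and 0 in Div8neg against Div0 (88.3 and 1.67%). In Div8pos against Div8neg, 16 were higher (34.8% of the list, against 52% of all genes) and 17 lower (37%, against 16.3%).

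The interferon receptor genes were measured in all groups. Changes of single genes of this list, here and in the next paragraphs, are relative to all genes. Per cell, 41 of the 46 were higher in Div8neg than in Div0 (88.3% of all genes were) and 0 lower. Ifnar1 was at 123 ± 7.27 CPM (SD, n = 2) in Div0 and 92.7 ± 8.63 in Div8neg (-0.41 ± 0.07, edgeR adjusted p = 7.65e-05), and it rose by 0.19 ± 0.07 in Div8pos (0.023). Ifnar2 fell from 68.9 ± 2.65 to 39.9 ± 1.96 CPM over the same divisions (-0.79 ± 0.07, edgeR adjusted p = 4.14e-08) and was at 41 ± 2.44 in Div8pos (0.618). The kinase gene Jak1 went from 701 ± 21.6 CPM in Div0 to 447 ± 8.97 in Div8neg and 159 ± 2.35 in Div8pos, falling in both comparisons (edgeR adjusted p = 2.83e-08 and 1.31e-12). Tyk2 was at 172 ± 3.23, 148 ± 0.759 and 152 ± 5.14 CPM, and only the first step was called (edgeR adjusted p = 0.00259 and then 0.509). The interferon gamma receptor gene Ifngr1 fell from 97 ± 6.92 CPM in Div8neg to 16.8 ± 1.4 in Div8pos (-2.52 ± 0.10, edgeR adjusted p = 2.04e-12). Levels of Ifnar1, Ifnar2 and Tyk2 in CD138-positive cells thus lay near those of Div8neg, and those of Jak1 and Ifngr1 lay below.

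Among the factors, Irf1 fell from 347 ± 8.17 CPM in Div0 to 126 ± 3.17 in Div8neg (-1.46 ± 0.05, edgeR adjusted p = 4.13e-12). Irf3 fell by 0.37 ± 0.05 over the same divisions and by 0.43 ± 0.05 from Div8neg to Div8pos (edgeR adjusted p = 8.14e-06 and 2.22e-06). Irf8 was at 850 ± 14.9, 915 ± 3.07 and 133 ± 7.64 CPM in Div0, Div8neg and Div8pos, with no call in Div8neg against Div0 (edgeR adjusted p = 0.0581) and a fall in Div8pos (6.35e-16).

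Of the receptors for microbial ligands, Tlr4, the LPS receptor, was at 19.3 ± 0.596 CPM in Div0, 10.8 ± 0.852 in Div8neg and 12.2 ± 2.61 in Div8pos, a fall and then no call (edgeR adjusted p = 3.98e-05 and 0.308). Tlr9 was at 334 ± 9.12 CPM in Div8neg and 1.89 ± 0.0695 in Div8pos (-7.46 ± 0.09, edgeR adjusted p = 1.35e-17), and Tlr7 went from 61.3 ± 0.103 to 8.86 ± 1.79 (-2.80 ± 0.13, 1.67e-11). Tlr3 rose from 16.8 ± 2.15 CPM in Div0 to 49.9 ± 6.77 in Div8neg (1.57 ± 0.12, edgeR adjusted p = 8.8e-09) and was at 0.328 ± 0.215 in Div8pos. The endosomal receptor genes were thus at low levels in the CD138-positive cells. Trim25, Traf6 and Tbk1, which act below the sensors, rose there by 0.54 ± 0.07, 0.40 ± 0.07 and 0.28 ± 0.05 (edgeR adjusted p = 4.08e-06, 7.73e-05 and 0.000273).

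A further list of other interferon-stimulated genes, with 83 of 92 tested, moved in both directions early and, relative to all genes, mostly downward later. In Div1 against Div0, 13 rose (15.7% of the list, against 5.47% of all genes) and 4 fell (4.82%, against 3.9%), or 7 with the host block. In Div3 against Div1, 2 rose (2.41%, against 1.91%) and 5 fell (6.02%, against 1.51%), or 4 and 9 with the block. In Div3 against Div0, 20 rose (24.1%, against 14.3%) and 19 fell (22.9%, against 12.5%). From Div3 to Div5, 5 rose (6.02%, against 14.2%) and 35 fell (42.2%, against 12.4%). From Div5 to Div8neg, 10 rose (12%, against 26.8%) and 53 fell (63.9%, against 26.6%). From Div0 to Div8neg, 15 rose (18.1%, against 35.3%) and 55 fell (66.3%, against 35.7%). From Div8neg to Div8pos, 16 rose (19.3%, against 36.7%) and 51 fell (61.4%, against 35.3%). Per cell, limma had 17 higher and 0 lower from Div3 to Div5, 18 and 13 from Div5 to Div8neg, 57 and 4 in Div8neg against Div0 with a median of 1.10, and 23 and 33 in Div8pos against Div8neg, with the shares of all genes as given for the list before. Some genes, Tlr3 among them, are in both lists. Relatives of the members went with them in part. Gbp9 went from 187 ± 2.3 CPM in Div0 to 32.1 ± 3.64 in Div8neg (-2.54 ± 0.10, edgeR adjusted p = 7.31e-12), while the members Gbp2 and Gbp3 rose in that comparison. Slfn8, of the Schlafen family, fell from 81.3 ± 7.5 to 7.17 ± 2.06 CPM (-3.51 ± 0.13, edgeR adjusted p = 6.66e-12). Cxcl10, a chemokine, rose from 5.12 ± 1.46 to 25.3 ± 1.43 (2.32 ± 0.20, edgeR adjusted p = 4.1e-08). In Div8pos against Div8neg, Isg20, an RNA exonuclease, rose from 21.8 ± 4.61 to 86.4 ± 13.3 CPM (1.99 ± 0.12, edgeR adjusted p = 4.94e-10). Mnda, of the same family as Ifi204, rose from 36.2 ± 0.0316 to 99.8 ± 2.13 (1.47 ± 0.08, edgeR adjusted p = 2.26e-10).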

How the data were processed

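RNA was measured in 12 libraries from 40000 sorted cells each, to which ERCC RNAs were added ahead of the extraction, with a stranded mRNA kit, 11 PCR cycles and 50 bp paired-end reads, per the labels' protocols. The submitters' processing notes name Picard, R 3.2.2 and the build mm9. Aligner, counting program and strand setting: not given in the sources used here. According to the readme, the deposited counts are reads over exons of UCSC mm9 genes. The deposited RPM values (counts over a library total) and the deposited FPKM values (RPM per kilobase) were used only to check the scale. The deposited signal in mRNAs per cell equals FPKM times 1 factor per library (0.1387 to 0.769), which was checked to be spike-in molecules per cell over spike-in FPKM. A symbol was missing for 90 of the deposited genes.

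The count test was edgeR's (version 4.0.16, R 4.3.3), with TMM factors of 0.9456 to 1.021, filterByExpr with the 6 groups, glmQLFit over all 12 libraries with group means, and glmQLFTest for 7 comparisons. For per-cell values limma-trend (3.58.1) was run on log2(mRNAs per cell + 0.1), in 4 comparisons, on the same genes, and counts of its calls are also given for Div5 against Div3 and Div8neg against Div5. The threshold of a call was 0.05 on the Benjamini-Hochberg adjusted p. Counting intervals are 95% and leave out the spread between hosts and PCR copies.

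The members and lists were chosen with earlier results of these data known. All 41 members may be named. Full statistics go, in each comparison, to at most 6 called members in each direction with the largest change and 10 CPM or more in the higher group, and to role groups. From each list, at most 3 genes in each direction and a fixed set of receptors and factors are named, apart from an item that is not reported here. Igtp, Irf7 and others that overlap a counted gene were looked up in GENCODE M21. Promoter windows are from RefSeq, build GRCm38.p6.

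The same host number marks the same animal per the labels, so hosts pair the groups. Same-host deviations from the group means correlated at 0.0204 to 0.299 over 15 pairs of groups (median 0.148). Alternatives were RLE factors, spike-in scaled library sizes, DESeq2 1.42.0, no filter on low counts, the 2 groups alone, the host as a block, leaving out each library and, per cell, a pseudocount of 1 and edgeR with spike-in scaling. The tests were first tried on simulated data.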

Additional observations from a re-analysis of the deposited data

How the results depend on the processing

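The 52 results for single members checked here are those picked by the largest change and 10 CPM or more. Their 884 fits under alternatives other than spike-in scaling kept the direction in all, and 32 of them lost the call. Weaker calls are not among the 52. Those of Trim30a, Stat2, Eif2ak2 and Ifi204 in Div3 against Div0, for example, were lost in further fits. No value whose sign was turned by spike-in scaling was called under it (edgeR adjusted p of 0.0691 to 0.899). This per-cell scale turned the sign for Samhd1 in Div1 against Div0 (0.43). In Div3 against Div0 it did so for Bst2 (0.03), Cmpk2 (0.13), Samhd1 (0.23), Igtp (0.30) and Ddx58 (0.40), from Div3 to Div5 for Ifi203 (0.18) and Xaf1 (0.17), and from Div0 to Div8neg for Ddx58 (0.05). Under it the members called higher and lower were 38 and 0 in Div1 against Div0, 28 and 0 in Div3 against Div0, 5 and 0 from Div3 to Div5, 5 and 5 from Div5 to Div8neg, and 30 and 2 from Div0 to Div8neg. It put 38 members in the class that rose at Div1 or Div3 and 0 in the class that only fell. Scaling by library and scaling by spike-in measure different quantities, a share of the RNA and an amount per cell.

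With no filter on low counts, 12 members rose and 3 fell in Div1 against Div0, 2 rose and 2 fell in Div3 against Div1, and 10 fell in Div3 against Div0. With the host as a replicate block, the pairing gave 10 and 3 in Div1 against Div0, 1 and 3 in Div3 against Div1, and 10 lower in Div3 against Div0. It removed no call of a member, and the calls it added are given with the comparisons or are Ifit2 and Ifi27l2a lower in Div8neg against Div0 and Oas1a, Oasl2 and Ifi203 higher in Div3 against Div0. Per cell, the number lower in Div8neg against Div0 was 1 with no filter on low values and 1 with a pseudocount of 1.

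Leaving out 1 library at a time gave 2 to 6 members higher and 1 to 2 lower in Div1 against Div0, 0 to 1 lower in Div3 against Div1, 5 to 10 higher and 3 to 9 lower in Div3 against Div0, and 6 to 17 lower in Div5 against Div3. It gave 0 to 1 higher in Div8neg against Div5, 2 to 5 higher in Div8neg against Div0, and 6 to 10 members that rose at Div1 or Div3. Per cell the ranges were 7 to 41 higher in Div1 against Div0, 7 to 30 higher in Div3 against Div0, 1 to 3 lower in Div8neg against Div0 and 20 to 26 lower in Div8pos against Div8neg. A group left with 1 library was assumed to vary like the others. Depth limits Ifit3, Oas2, Rtp4 and Ifi44, which had at most 2 counts in the Div8pos libraries together.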
